A study of Homo sapiens with 12 samples.

Results

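The 10 genes described here encode brakes on mitogen-activated protein kinase (MAPK) signalling. They are the dual-specificity phosphatase genes DUSP1, DUSP4, DUSP5, DUSP6, DUSP8 and DUSP10, the Sprouty genes SPRY2 and SPRY4, and the Sprouty-related genes SPRED1 and SPRED2. They were chosen by name with earlier results of these data known, and so were the lists of pathway genes used below. Counts of calls set beside the share over all genes therefore describe these genes and are no test. Each of the 10 symbols matched 1 row of the count table, so that 10 of its 60676 gene rows are described. All 10 passed the filter on low counts that left 16192 genes to test.

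MAPK cascades pass signals from growth factor receptors and stress through chains of kinases that end in ERK, JNK and p38. DUSP proteins of this kind remove the activating phosphates from those last kinases, Sprouty proteins act between the receptor and RAF, and SPRED proteins bring the RAS inhibitor neurofibromin to the membrane. Many of these genes are switched on by the pathway that they restrain, so their transcripts are often read as a record of recent MAPK activity. In epithelial cells TGF-β, which signals mainly through SMAD proteins, can also engage MAPK cascades.

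RNA was sequenced in 12 libraries, 3 for each of 4 groups, all from A549, a human line of lung adenocarcinoma origin. The groups were LETS1 cells given TGF-β at 5 ng/mL for 4 h, LETS1 cells given ligand buffer for 4 h, Co.vec cells given TGF-β at 5 ng/mL for 4 h, and Co.vec cells given ligand buffer for 4 h. LETS1 is a long non-coding RNA expressed from a lentiviral vector, Co.vec is the empty vector pCDH-EF1a-PURO, and all cells had been transduced and held under puromycin selection. The series' design text calls the replicates biological without saying whether each had its own transduction, so p values measure the spread between these samples only.

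Libraries held 19705135 to 20351043 fragments in genes, and no library stood apart in depth. The table of names held 0 rows named LETS1, so the level of the overexpressed RNA was not checked here. Levels are given as CPM, counts scaled to a common library size with TMM factors. The 8 epithelial and A549 markers summed to 22456 to 22948 CPM in LETS1 cells with TGF-β, 20731 to 21417 CPM in LETS1 cells in buffer, 25081 to 26564 CPM in Co.vec cells with TGF-β and 24183 to 25465 CPM in Co.vec cells in buffer. None of the 8 was near 0, EPCAM being the lowest at 6.51 to 8.71 CPM, while the 3 immune markers summed to at most 0.102 CPM and the 3 endothelial ones to at most 0.618 CPM. The 3 fibroblast and pericyte markers summed to 133.5 to 150.4 CPM in LETS1 cells with TGF-β, 18.7 to 22.7 CPM in LETS1 cells in buffer, 121.4 to 129.5 CPM in Co.vec cells with TGF-β and 13.3 to 13.6 CPM in Co.vec cells in buffer. Nearly all of that was COL1A1, the collagen gene, since DCN reached at most 0.147 CPM and PDGFRB at most 0.652 CPM. Both marker sums moved with the groups, and their part in the results was not tested. In bulk RNA, fewer cells of a kind and less RNA per cell cannot be told apart.

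Per kilobase of merged GENCODE exon, the levels of the 10 genes spanned a wide range. In LETS1 cells in buffer, DUSP1 led with 96.0 CPM per kb, ahead of DUSP4 with 70.2, DUSP5 with 22.5, SPRED2 with 11.3, SPRY2 with 6.26, SPRED1 with 4.12, DUSP6 with 3.505, SPRY4 with 3.09, DUSP10 with 2.14 and DUSP8 with 1.22 CPM per kb, and no neighbouring pair overlapped over the 3 libraries. In Co.vec cells in buffer, DUSP4 led with 62.4 CPM per kb, ahead of DUSP1 with 29.6, DUSP5 with 16.2, SPRED2 with 11.5, SPRED1 with 5.54, SPRY2 with 4.32, DUSP6 with 3.65, DUSP10 with 2.42, SPRY4 with 2.37 and DUSP8 with 0.668 CPM per kb. There the libraries of SPRY2 and DUSP6 overlapped, as did those of DUSP10 and SPRY4. By this measure the order was led by DUSP1 in LETS1 cells and by DUSP4 in Co.vec cells. DUSP5 followed these 2 genes and DUSP8 was last in both. The lead rests on merged exon lengths of 2019 bases for DUSP1 and 7257 for DUSP4. Which isoforms were expressed was not checked. In CPM, DUSP4 was above DUSP1 in LETS1 cells in buffer as well (509.2 against 193.8).

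With TGF-β the ends of the order were as in buffer. In LETS1 cells given the ligand, DUSP1 stood at 56.3, DUSP4 at 51.1, DUSP5 at 16.8, SPRED2 at 13.3, SPRED1 at 5.86, SPRY2 at 5.33, SPRY4 at 5.28, DUSP6 at 4.18, DUSP10 at 2.23 and DUSP8 at 1.66 CPM per kb. The libraries of SPRED1 and SPRY2, and those of SPRY2 and SPRY4, overlapped. In Co.vec cells given the ligand, DUSP4 stood at 54.4, DUSP1 at 42.4, DUSP5 at 18.2, SPRED2 at 12.47, SPRED1 at 7.09, SPRY2 at 5.47, SPRY4 at 4.61, DUSP6 at 4.59, DUSP10 at 2.13 and DUSP8 at 1.70 CPM per kb, with overlap only between SPRY4 and DUSP6. Among the 16048 tested genes with an annotated length, DUSP1 was at the 98.2nd percentile in LETS1 cells in buffer and the 92nd in Co.vec cells in buffer, while DUSP8 was at the 30.4th in LETS1 cells in buffer and the 21.7th in Co.vec cells in buffer.

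Summed per kilobase, the 6 DUSP genes came to 132.4 ± 4.06 CPM per kb in LETS1 cells with TGF-β, 195.5 ± 12.6 in LETS1 cells in buffer, 123.4 ± 10.2 in Co.vec cells with TGF-β and 115.0 ± 3.20 in Co.vec cells in buffer (SD, n = 3 each). DUSP1 made up 42.5% ± 0.967 of the sum in LETS1 cells with TGF-β, 49.1% ± 0.310 in LETS1 cells in buffer, 34.3% ± 1.88 in Co.vec cells with TGF-β and 25.7% ± 0.739 in Co.vec cells in buffer (SD, n = 3 each). The LETS1 cells in buffer were the group with the highest sum, and per kilobase most of its excess over the other groups was DUSP1. These shares depend on the merged exon lengths, as the order does.

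**Figure D1:**
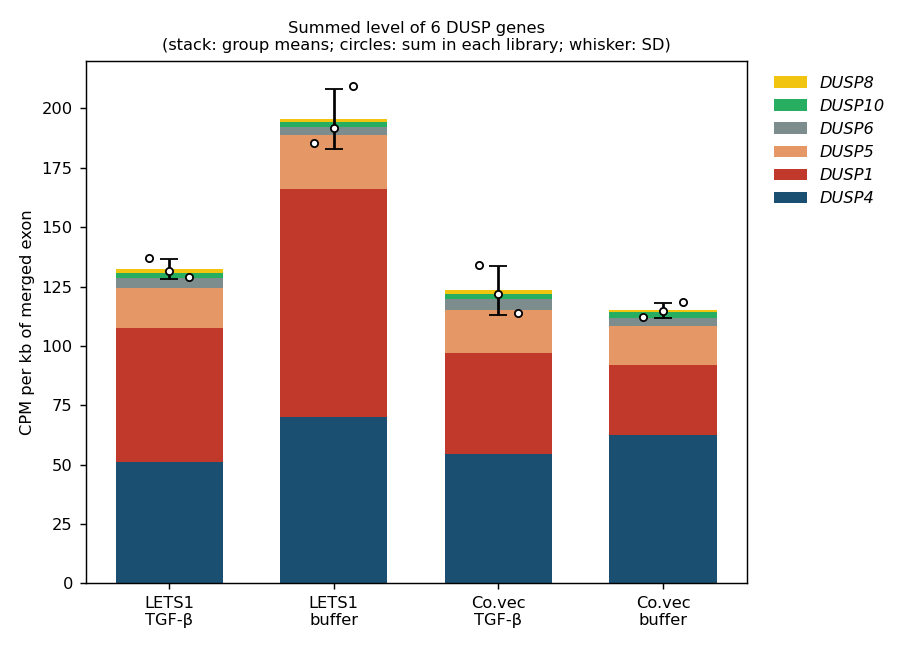
Summed level of 6 DUSP genes in CPM per kilobase of merged exon, with groups along the x axis; the stack gives group means, circles the sum in each of 3 libraries and whiskers the SD. The LETS1 buffer group stands at 195.5 CPM per kb and the other groups at 115.0 to 132.4 CPM per kb.

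LETS1 was set against Co.vec in buffer to ask how these genes stand under LETS1 when no TGF-β is added. Of the 10 genes, 6 rose (DUSP1, DUSP4, DUSP5, DUSP8, SPRY2 and SPRY4), 1 fell (SPRED1) and 3 did not pass (edgeR quasi-likelihood test, adjusted p under 0.05). Over all genes tested, 8.57% were called higher and 6.56% lower. The median log2 fold change of the 10 genes was 0.27, against 0.01 over all genes tested. All comparisons use the same 4 groups, so each group stands in 2 of the pairwise comparisons.

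DUSP1 encodes a nuclear phosphatase of p38, JNK and ERK that is induced within minutes of stress or growth factors (ENSG00000120129, GRCh38 chromosome 5, 172768090 to 172771195, minus strand). It had 183.3, 189.0 and 209.1 CPM in LETS1 cells in buffer, against 56.4, 59.98 and 63.1 CPM in Co.vec cells in buffer. Every LETS1 library was far above every Co.vec library, and the log2 fold change was 1.70 (SE 0.077, by edgeR adjusted p = 3.94e-12). With TGF-β, DUSP1 had 119.7, 113.6 and 107.9 CPM in LETS1 cells, against 98.4, 83.4 and 75.1 CPM in Co.vec cells. The groups again did not overlap, but the log2 fold change was 0.41 (SE 0.077, by edgeR adjusted p = 0.000882).

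DUSP8 encodes a phosphatase that prefers JNK and p38 (ENSG00000184545, chromosome 11, 1554044 to 1571920, minus strand). Per kilobase it had the lowest level of the 10 genes in each group, and in buffer it moved in the same way as DUSP1. It had 5.08, 5.54 and 6.25 CPM in LETS1 cells in buffer, against 2.72, 3.12 and 3.41 CPM in Co.vec cells in buffer. Its log2 fold change was 0.87 (SE 0.142, by edgeR adjusted p = 1.15e-05), with no overlap between the groups. Given TGF-β, it had 8.05, 7.83 and 7.17 CPM in LETS1 cells, against 8.58, 6.65 and 8.28 CPM in Co.vec cells. These groups overlapped, with a log2 fold change of -0.03 (95% interval -0.26 to 0.20, edgeR adjusted p = 0.906).

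The promoter windows of DUSP1 and DUSP8 are shown because these genes had the largest LETS1 differences in buffer and were the only members with a match to any motif searched. Windows run from 250 bases before to 50 bases after the RefSeq gene start (GRCh38.p14), are given on the gene's own strand 5′ to 3′, and carry the motif in capitals. DUSP1 lies at chr5:172771146-172771445 and DUSP8 at chr11:1572222-1572521, both on the minus strand.

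DUSP1: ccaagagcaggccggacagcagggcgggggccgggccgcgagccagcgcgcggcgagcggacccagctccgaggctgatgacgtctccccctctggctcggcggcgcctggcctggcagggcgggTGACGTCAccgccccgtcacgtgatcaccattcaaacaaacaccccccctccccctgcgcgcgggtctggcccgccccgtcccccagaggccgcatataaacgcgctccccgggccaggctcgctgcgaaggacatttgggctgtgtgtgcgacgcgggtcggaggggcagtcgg

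DUSP8: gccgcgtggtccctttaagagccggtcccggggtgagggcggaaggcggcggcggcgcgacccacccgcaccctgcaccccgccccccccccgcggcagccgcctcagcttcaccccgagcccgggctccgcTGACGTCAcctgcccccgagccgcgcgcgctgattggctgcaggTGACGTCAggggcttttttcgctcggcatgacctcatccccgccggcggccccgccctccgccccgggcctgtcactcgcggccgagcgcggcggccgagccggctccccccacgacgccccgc

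The capitals mark TGACGTCA, the full cAMP response element, which CREB and ATF proteins can bind. The DUSP1 window held it once, starting 125 bases before the gene start, and the DUSP8 window held it at 118 and at 74 bases before the start. Of 35116 RefSeq windows of the same length, 649 (1.85%) held this motif on either strand. Windows were matched for 8 members, all but DUSP4 and DUSP5. None of those 8 held the AP-1 site TGANTCA (7.71% of all windows), the SMAD palindrome GTCTAGAC (0.202%), the ETS site ACCGGAAGT (1.0%) or the CArG box of serum response factor (1.29%), and no matches overlapped. A match is a run of letters only, and binding was not measured.

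DUSP5, a nuclear phosphatase specific for ERK (ENSG00000138166, chromosome 10, 110497838 to 110511544, plus strand), had 54.6, 59.8 and 62.1 CPM in LETS1 cells in buffer, against 41.4, 41.9 and 43.8 CPM in Co.vec cells in buffer. All 3 LETS1 libraries were higher, by a log2 fold change of 0.47 (SE 0.060, by edgeR adjusted p = 7.34e-08). With TGF-β the levels were 44.8, 44.5 and 42.8 CPM in LETS1 cells and 50.7, 48.6 and 43.1 CPM in Co.vec cells. Here the groups overlapped, and the log2 fold change was -0.11 (95% interval -0.23 to 0.02, edgeR adjusted p = 0.269).

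DUSP4, a nuclear phosphatase of ERK and JNK (ENSG00000120875, chromosome 8, 29333064 to 29350668, minus strand), had the highest counts of the 10 genes. It had 484.5, 498.7 and 544.3 CPM in LETS1 cells in buffer, against 450.6, 452.2 and 456.6 CPM in Co.vec cells in buffer. The groups did not overlap, and the log2 fold change was 0.17 (SE 0.044, by edgeR adjusted p = 0.00634). That call was lost without LETS1 buffer replicate 3 (log2 fold change 0.12, edgeR adjusted p = 0.115). With TGF-β, DUSP4 had 380.5, 362.8 and 369.3 CPM in LETS1 cells, against 416.2, 391.9 and 376.8 CPM in Co.vec cells, a log2 fold change of -0.09 that did not pass (edgeR adjusted p = 0.192).

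DUSP6 and DUSP10 showed no call for LETS1. DUSP6, a cytoplasmic phosphatase specific for ERK (ENSG00000139318, chromosome 12, 89347232 to 89353271, minus strand), ranged from 15.1 to 17.2 CPM in LETS1 cells in buffer, against 14.3 to 19.5 CPM in Co.vec cells in buffer. Its log2 fold change was -0.06 (95% interval -0.24 to 0.12, edgeR adjusted p = 0.747), and with TGF-β it was -0.13 (95% interval -0.31 to 0.04, edgeR adjusted p = 0.341). DUSP10, which prefers JNK and p38 (ENSG00000143507, chromosome 1, 221701424 to 221742176, minus strand), ranged from 6.04 to 6.40 CPM in LETS1 cells in buffer, against 6.69 to 7.26 CPM in Co.vec cells in buffer. Those ranges did not overlap, yet the log2 fold change of -0.17 did not pass (95% interval -0.39 to 0.05, edgeR adjusted p = 0.336). Of DUSP6's exon bases, 40.5% are also exon of AC024909.2 on the other strand, which had 1 to 5 counts per library. The strand setting of the counting is not given in the sources used here, so reads from the shared bases cannot be told apart with certainty. The level of DUSP6 per kilobase, its place in the order and its part in the DUSP sum carry the same doubt.

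SPRY2 encodes Sprouty2, an inhibitor of RAS and RAF activation downstream of growth factor receptors (ENSG00000136158, chromosome 13, 80335976 to 80340951, minus strand). It had 18.9, 17.4 and 20.8 CPM in LETS1 cells in buffer, against 12.7, 12.4 and 14.3 CPM in Co.vec cells in buffer. All LETS1 libraries were higher, with a log2 fold change of 0.54 (SE 0.087, by edgeR adjusted p = 1.07e-05). With TGF-β, it had 15.1, 15.1 and 18.4 CPM in LETS1 cells, against 17.3, 16.0 and 16.6 CPM in Co.vec cells. The groups overlapped, and the log2 fold change was -0.04 (95% interval -0.21 to 0.14, edgeR adjusted p = 0.835).

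SPRY4, a Sprouty gene with a like role (ENSG00000187678, chromosome 5, 142310427 to 142326455, minus strand), had 19.0, 20.6 and 21.3 CPM in LETS1 cells in buffer, against 15.6, 14.97 and 16.1 CPM in Co.vec cells in buffer. The groups were apart, with a log2 fold change of 0.38 (SE 0.079, by edgeR adjusted p = 0.000412). With TGF-β, SPRY4 had 32.9, 34.3 and 36.8 CPM in LETS1 cells, against 33.5, 29.01 and 28.3 CPM in Co.vec cells. The groups overlapped and the log2 fold change of 0.20 passed narrowly (SE 0.068, by edgeR adjusted p = 0.0456). Leaving out any of 7 libraries ended this call (edgeR adjusted p = 0.0506 to 0.195), namely replicate 2 of any group, replicate 3 of Co.vec with TGF-β and replicate 3 of either LETS1 group. The DESeq2 adjusted p was 0.114.

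SPRED1, which encodes a partner of neurofibromin that dampens RAS (ENSG00000166068, chromosome 15, 38252326 to 38357249, plus strand), was lower with LETS1 under both conditions. It had 36.1, 32.0 and 34.1 CPM in LETS1 cells in buffer, against 49.8, 43.1 and 44.5 CPM in Co.vec cells in buffer. With TGF-β it had 46.5, 48.1 and 50.6 CPM in LETS1 cells, against 58.5, 59.3 and 58.0 CPM in Co.vec cells. The groups did not overlap in either condition, and the log2 fold changes were -0.43 in buffer (SE 0.061, by edgeR adjusted p = 1.04e-06) and -0.28 with TGF-β (SE 0.058, by edgeR adjusted p = 0.000575). SPRED2, a close relative (ENSG00000198369, chromosome 2, 65310851 to 65432637, minus strand), did not pass in buffer, at 54.0 to 61.4 CPM in LETS1 cells and 58.4 to 60.5 CPM in Co.vec cells (log2 fold change -0.02, 95% interval -0.13 to 0.09, edgeR adjusted p = 0.882). With TGF-β it stood at 66.5 to 71.1 CPM in LETS1 cells and 63.2 to 65.5 CPM in Co.vec cells (log2 fold change 0.09, 95% interval -0.02 to 0.20, edgeR adjusted p = 0.283).

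Taking the LETS1 comparison with TGF-β as a whole, 2 of the 10 genes were higher (DUSP1 and SPRY4), 1 was lower (SPRED1) and 7 did not pass. Over all genes tested, 7.58% were higher and 6.5% lower in that comparison. The median log2 fold change of the 10 genes was -0.03, against 0.00 over all genes tested.

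Within LETS1 cells in buffer, replicate 3 was the highest library for 7 of the 10 genes, among them all 6 that rose. Without it, DUSP1 (log2 fold change 1.64), DUSP8 (0.78), SPRY2 (0.47), DUSP5 (0.43) and SPRY4 (0.34) were still called higher and SPRED1 (-0.43) lower by edgeR, and DUSP4 was not called. Replicate 3 was also highest for 9 of the 10 genes in Co.vec cells in buffer, and replicate 1 for 8 of the 10 in Co.vec cells with TGF-β.

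**Figure D2:**
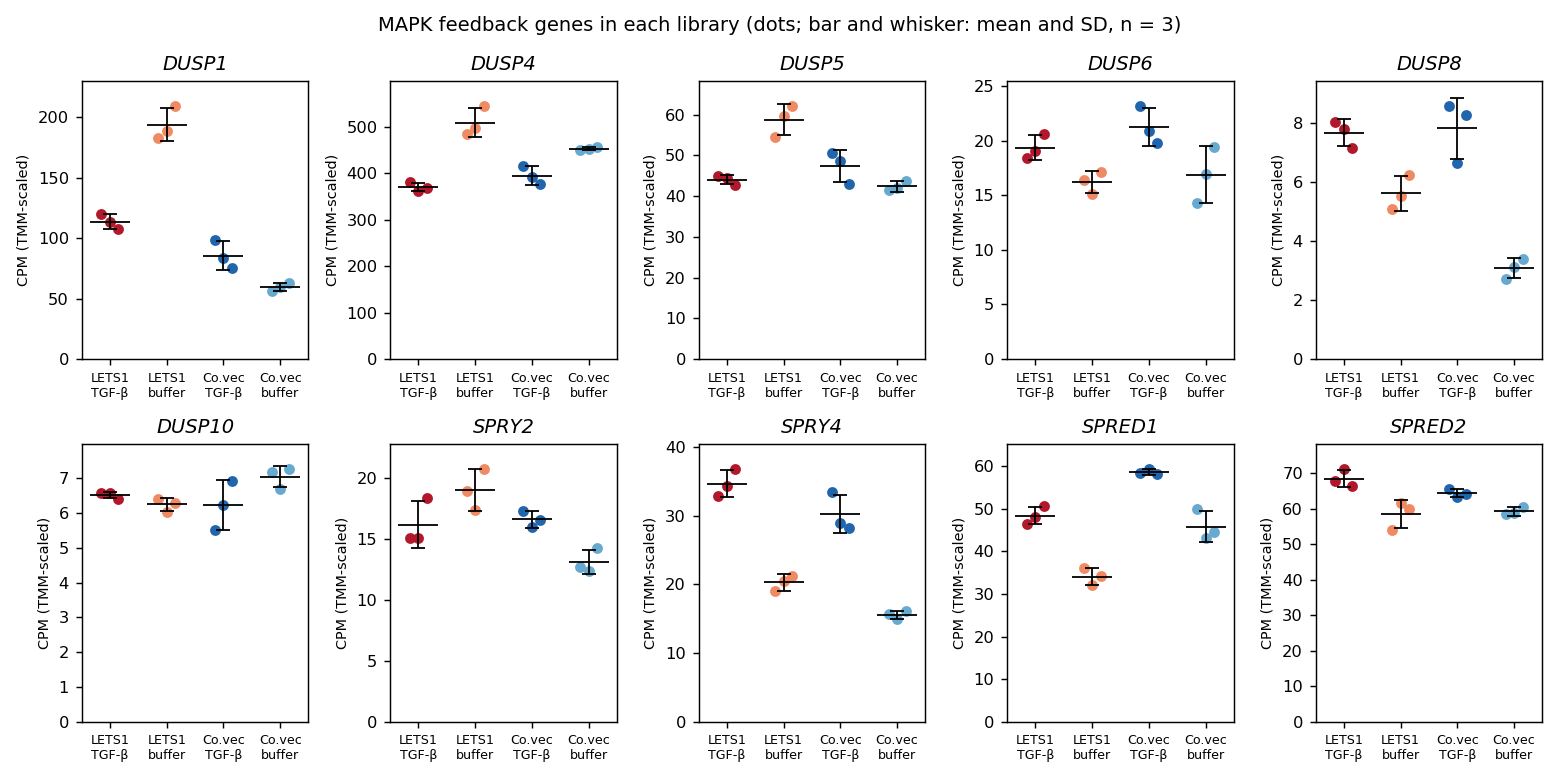
CPM of each of the 10 genes (y axis, starting at 0) in the 4 groups (x axis); dots are the 3 libraries of a group, and the bar and whisker their mean and SD. DUSP1 stands at 183.3 to 209.1 CPM in LETS1 cells in buffer, above the other 3 groups, while SPRY4 is higher with TGF-β in both LETS1 and Co.vec cells.

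TGF-β was set against buffer within each kind of cell to ask how these genes respond to 4 h of ligand with and without LETS1. In LETS1 cells, 5 of the 10 genes rose (DUSP6, DUSP8, SPRY4, SPRED1 and SPRED2), 4 fell (DUSP1, DUSP4, DUSP5 and SPRY2) and 1 did not pass, beside 19.7% of all genes tested that were higher and 19.1% that were lower. In Co.vec cells, 7 rose (DUSP1, DUSP5, DUSP6, DUSP8, SPRY2, SPRY4 and SPRED1), 1 fell (DUSP4) and 2 did not pass, beside 21.1% higher and 18.6% lower over all genes tested. The median log2 fold change of the 10 genes was 0.14 in LETS1 cells and 0.34 in Co.vec cells, against -0.02 over all genes tested in each.

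DUSP1 fell in LETS1 cells, at 113.7 ± 5.90 CPM with TGF-β and 193.8 ± 13.6 CPM in buffer (SD, n = 3 each; log2 fold change -0.77, SE 0.073, edgeR adjusted p = 6.14e-08). In Co.vec cells it rose, at 85.6 ± 11.8 CPM with TGF-β and 59.8 ± 3.34 CPM in buffer (SD, n = 3 each; log2 fold change 0.52, SE 0.080, edgeR adjusted p = 3.29e-05). The libraries did not overlap in either kind of cell. DUSP5 did the same, with a log2 fold change of -0.42 in LETS1 cells (SE 0.060, by edgeR adjusted p = 2.77e-07) and 0.16 in Co.vec cells (SE 0.061, by edgeR adjusted p = 0.0311). The rise in Co.vec cells was not stable: its libraries overlapped, and leaving out replicate 1 or 2 of either Co.vec group ended the call (edgeR adjusted p = 0.0711 to 0.167), as did DESeq2 (0.062).

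SPRY2 stood at 16.2 ± 1.92 CPM with TGF-β and 19.0 ± 1.69 CPM in buffer in LETS1 cells (SD, n = 3 each), a log2 fold change of -0.23 (SE 0.085, by edgeR adjusted p = 0.0262). Its libraries overlapped there, and the call was lost without LETS1 buffer replicate 1 or 3 or LETS1 TGF-β replicate 1 or 2 (edgeR adjusted p = 0.0553 to 0.18), with DESeq2 (0.106) and with no filter on low counts (0.0675). In Co.vec cells SPRY2 rose, at 16.6 ± 0.672 CPM with TGF-β and 13.1 ± 1.011 CPM in buffer (SD, n = 3 each; log2 fold change 0.34, SE 0.089, edgeR adjusted p = 0.00214). DUSP4 fell in both, by 0.46 on the log2 scale in LETS1 cells (SE 0.045, by edgeR adjusted p = 4.2e-11) and by 0.20 in Co.vec cells (SE 0.045, by edgeR adjusted p = 0.000404).

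SPRY4 and DUSP8 rose with the ligand in both kinds of cell. SPRY4 stood at 34.7 ± 2.0 CPM with TGF-β and 20.3 ± 1.18 CPM in buffer in LETS1 cells (log2 fold change 0.77, SE 0.071, edgeR adjusted p = 8.21e-12), and at 30.3 ± 2.83 CPM with TGF-β and 15.6 ± 0.582 CPM in buffer in Co.vec cells (log2 fold change 0.96, SE 0.075, edgeR adjusted p = 1.01e-13; SD, n = 3 each). DUSP8 rose by a log2 fold change of 0.45 in LETS1 cells (SE 0.119, by edgeR adjusted p = 0.00241) and 1.35 in Co.vec cells (SE 0.134, by edgeR adjusted p = 7.02e-11). Both genes were higher in every TGF-β library than in every buffer library of the same cells.

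SPRED1 rose in both kinds of cell, by a log2 fold change of 0.51 in LETS1 cells (SE 0.061, by edgeR adjusted p = 6.99e-09) and 0.36 in Co.vec cells (SE 0.058, by edgeR adjusted p = 3.46e-06). SPRED2 rose in LETS1 cells (0.23, SE 0.053, edgeR adjusted p = 0.000572) and had a log2 fold change of 0.12 in Co.vec cells that did not pass (95% interval 0.01 to 0.23, edgeR adjusted p = 0.0707). DUSP6 rose by 0.26 in LETS1 cells (SE 0.088, by edgeR adjusted p = 0.0197) and 0.33 in Co.vec cells (SE 0.087, by edgeR adjusted p = 0.00226). The DUSP6 call in LETS1 cells was lost without LETS1 buffer replicate 2 (edgeR adjusted p = 0.0932) or LETS1 TGF-β replicate 3 (0.0936). DUSP10 did not pass in LETS1 cells (0.06, 95% interval -0.17 to 0.29, edgeR adjusted p = 0.712) or in Co.vec cells (-0.18, 95% interval -0.40 to 0.05, edgeR adjusted p = 0.211).

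**Figure D3:**
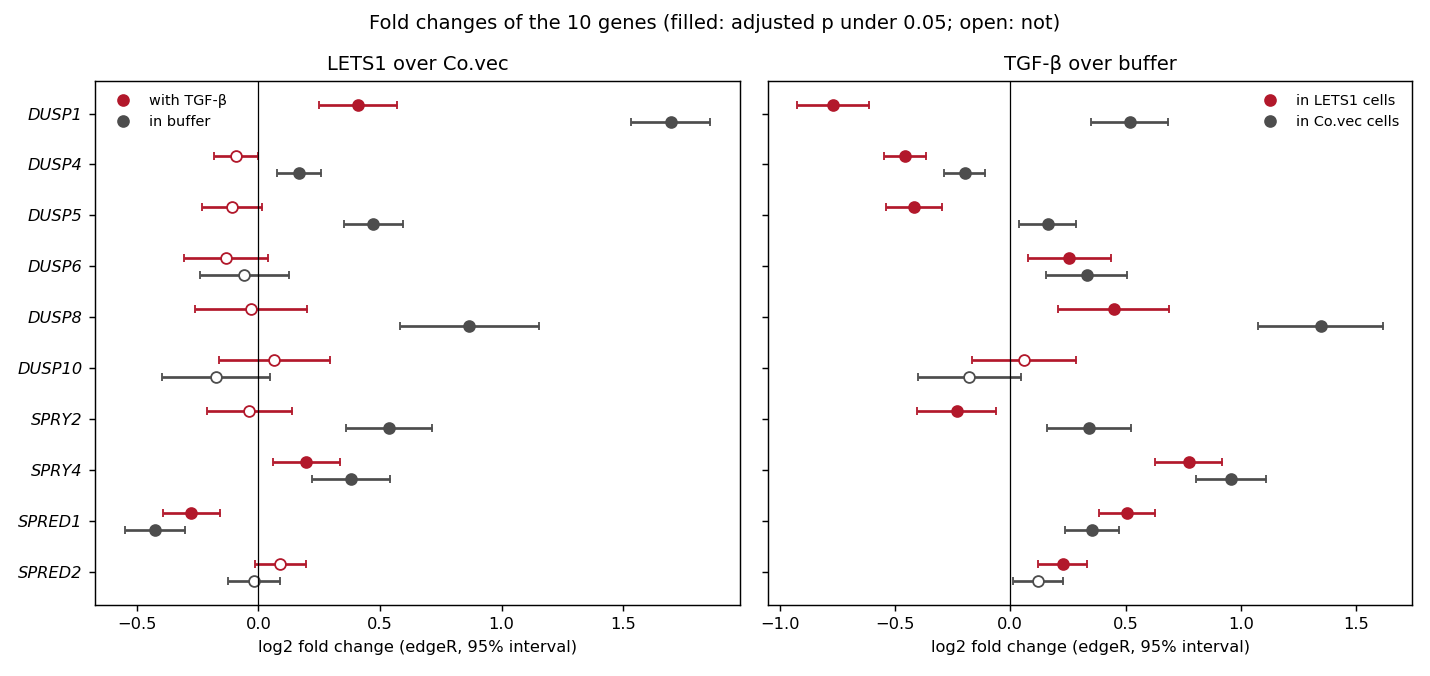
Log2 fold changes (x axis) of the 10 genes (y axis) with 95% intervals from edgeR, for LETS1 over Co.vec on the left and TGF-β over buffer on the right; filled points have an adjusted p under 0.05. In buffer DUSP1 has the largest LETS1 difference (1.70), and with TGF-β it moves down in LETS1 cells (-0.77) and up in Co.vec cells (0.52).

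The ligand responses were then set against each other in an interaction term, the response in LETS1 cells minus the response in Co.vec cells. A lower response is thus a more negative or less positive one, and need not be a weaker one. The term also equals the LETS1 difference with TGF-β minus that in buffer, so it restates the comparisons above. Of the 10 genes, 5 had a lower response in LETS1 cells (DUSP1, DUSP4, DUSP5, DUSP8 and SPRY2) and 0 a higher one by edgeR, with 0 higher also at an unadjusted p under 0.05 and 0 with DESeq2. Over all genes tested, 0.599% had a lower and 0.0803% a higher response. The median of the term was -0.22 for the 10 genes and 0.00 over all genes tested.

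The difference was -1.29 on the log2 scale for DUSP1 (SE 0.109, by edgeR adjusted p = 1.1e-06), -0.90 for DUSP8 (SE 0.182, 0.00438) and -0.58 for DUSP5 (SE 0.085, 3.61e-05). For SPRY2 it was -0.57 (SE 0.123, by edgeR adjusted p = 0.00846) and for DUSP4 -0.26 (SE 0.063, 0.0332). The SPRY2 call was lost without LETS1 buffer replicate 3 (0.0653) or LETS1 TGF-β replicate 2 (0.0503). The DUSP4 call was lost without replicate 1 or 2 of Co.vec in buffer, replicate 1 of Co.vec with TGF-β, replicate 3 of LETS1 in buffer, or replicate 2 or 3 of LETS1 with TGF-β (0.050 to 0.231), and with a replicate block (0.0691). DUSP6 (-0.08, 95% interval -0.33 to 0.18), DUSP10 (0.24, -0.08 to 0.56), SPRY4 (-0.18, -0.40 to 0.03), SPRED1 (0.15, -0.02 to 0.32) and SPRED2 (0.11, -0.04 to 0.26) did not pass, with edgeR adjusted p values of 0.719 to 0.954.

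The remaining MAPK phosphatase, Sprouty and SPRED genes were followed as a list of 8, of which 7 had enough counts to test and DUSP2 did not. SPRED3 was higher with LETS1 in buffer, at 8.41 ± 1.05 CPM in LETS1 cells and 5.48 ± 0.291 CPM in Co.vec cells (SD, n = 3 each; log2 fold change 0.62, edgeR adjusted p = 0.000115). SPRY1, another Sprouty gene, was lower, at 5.25 ± 0.792 CPM in LETS1 cells and 7.26 ± 0.527 CPM in Co.vec cells (SD, n = 3 each; -0.47, edgeR adjusted p = 0.00935). Its call was lost without LETS1 buffer replicate 1 (0.0987) or Co.vec buffer replicate 3 (0.0645). With TGF-β, SPRY1 fell steeply, by 2.16 on the log2 scale in LETS1 cells (edgeR adjusted p = 1.42e-12) and by 1.86 in Co.vec cells (7.62e-13), in contrast with SPRY4. DUSP7, which encodes a cytoplasmic ERK phosphatase, rose by 1.37 in LETS1 cells (edgeR adjusted p = 4.36e-17) and 1.36 in Co.vec cells (1.67e-16). DUSP16, a phosphatase of JNK and p38, fell by 0.32 in LETS1 cells (2.23e-06) and by 0.32 in Co.vec cells (2.84e-06). With TGF-β present, SPRED3 was again higher in LETS1 cells (0.51) and SPRY1 lower (-0.77, edgeR adjusted p = 0.0184), the SPRY1 call being lost without LETS1 TGF-β replicate 1 (0.109) or 3 (0.0912) or Co.vec TGF-β replicate 3 (0.0702). Of the 7, 1 rose and 2 fell with TGF-β in LETS1 cells, beside 19.7% higher and 19.1% lower over all genes tested. In Co.vec cells 1 rose and 3 fell, beside 21.1% higher and 18.6% lower. For the interaction edgeR called 0 of the 7, with 0 at an unadjusted p under 0.05 and 0 with DESeq2. The shares over all genes tested were 0.599% lower and 0.0803% higher.

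Genes that ERK signalling is known to induce were listed as ERK output genes, and 21 of the 22 had enough counts to test. With LETS1 in buffer, 11 of the 21 rose and 6 fell, beside 8.57% higher and 6.56% lower over all genes tested. Their median log2 fold change was 0.26, against 0.01 over all genes tested. EGR1, an immediate early transcription factor gene, stood at 66.7 ± 15.6 CPM in LETS1 cells and 2.42 ± 0.255 CPM in Co.vec cells (SD, n = 3 each) and had a log2 fold change of 4.78 (edgeR adjusted p = 3.83e-08), FOS of 1.67 (2.49e-13) and FOSL1 of 0.94 (7.2e-12), the FOS genes encoding parts of the AP-1 factor. The ETS factor genes ETV1 (-0.42), ETV4 (-0.41) and ETV5 (-0.20) and the cyclin gene CCND1 (-0.16) were among those lower; they lie outside the naming rule and were chosen after their values were seen. With TGF-β, 2 of the 21 were higher and 4 lower with LETS1, or 6 and 4 without Co.vec TGF-β replicate 1. The shares over all genes tested were 7.58% higher and 6.5% lower there.

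The same 21 genes responded to TGF-β in both directions. In LETS1 cells 14 rose and 7 fell, beside 19.7% higher and 19.1% lower over all genes tested. In Co.vec cells 13 rose and 3 fell, beside 21.1% higher and 18.6% lower. FOS fell by 4.12 on the log2 scale in LETS1 cells, where it stood at 3.74 ± 0.752 CPM with TGF-β and 65.2 ± 6.79 CPM in buffer, and by 2.35 in Co.vec cells, at 4.03 ± 0.335 CPM with TGF-β and 20.5 ± 3.32 CPM in buffer (SD, n = 3 each). The sphingosine kinase gene SPHK1 rose by 1.93 in LETS1 cells and 2.08 in Co.vec cells, and HBEGF, an EGF receptor ligand gene, rose by 1.90 in LETS1 cells and 1.78 in Co.vec cells. For the interaction 6 of the 21 were lower and 0 higher by edgeR (2 higher at an unadjusted p under 0.05, 0 with DESeq2). The shares over all genes tested were 0.599% lower and 0.0803% higher. The largest of the 6 were EGR1 (-4.41), FOS (-1.77), FOSL1 (-0.75) and IER2 (-0.74).

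Other inhibitors of receptor and ERK signalling were followed as a list of 24, of which 23 had enough counts to test. With TGF-β, 9 of the 23 rose and 4 fell in LETS1 cells, beside 19.7% of all genes tested that were higher and 19.1% lower, and 14 rose and 4 fell in Co.vec cells, beside 21.1% higher and 18.6% lower. The receptor phosphatase gene PTPRE rose by 1.47 in LETS1 cells and 2.06 in Co.vec cells, and PTPRJ by 1.121 in LETS1 cells and 1.108 in Co.vec cells. With LETS1 in buffer, 4 of the 23 rose and 2 fell, beside 8.57% higher and 6.56% lower over all genes tested, among the rises PTPRE (1.44) and the adaptor gene SH2B3 (0.73). With TGF-β 5 were higher and 2 lower with LETS1, beside 7.58% higher and 6.5% lower over all genes tested. For the interaction edgeR called 0 of the 23, with 4 lower at an unadjusted p under 0.05 and 0 with DESeq2, and 1 was called without Co.vec buffer replicate 1 or without LETS1 TGF-β replicate 1. The shares over all genes tested were 0.599% lower and 0.0803% higher.

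The cascades themselves were followed as separate lists. The first held 29 ERK cascade genes, from receptors to ERK and its target kinases. Of these, 1 rose (3.45%) and 3 fell (10.3%) with LETS1 in buffer, beside 8.57% higher and 6.56% lower over all genes tested. Only 1 was called without Co.vec buffer replicate 2, LETS1 buffer replicate 1 or LETS1 buffer replicate 3, and 2 were called without LETS1 TGF-β replicate 2, with a replicate block or with DESeq2. The receptor gene ERBB3 was the largest change, at 15.4 ± 0.861 CPM in LETS1 cells and 31.3 ± 1.57 CPM in Co.vec cells (SD, n = 3 each; log2 fold change -1.02, edgeR adjusted p = 2.46e-13). With TGF-β present, edgeR called 0 of the 29 higher (4 at an unadjusted p under 0.05 and 0 with DESeq2) and 1 lower, again ERBB3 (-1.28), or 1 and 1 without Co.vec TGF-β replicate 1. Over all genes tested, 7.58% were higher and 6.5% lower in that comparison. With the ligand, 14 rose (48.3%) and 4 fell (13.8%) in LETS1 cells, beside 19.7% higher and 19.1% lower over all genes tested. In Co.vec cells likewise 14 rose and 4 fell, beside 21.1% higher and 18.6% lower. EGFR rose by 0.92 in LETS1 cells and 0.91 in Co.vec cells. Of 20 JNK and p38 cascade genes, 1 rose (5%) and 2 fell (10%) with LETS1 in buffer, near the 8.57% and 6.56% of all genes. With TGF-β, 3 were higher and 1 lower with LETS1 (1 and 1 without Co.vec TGF-β replicate 1 or LETS1 TGF-β replicate 3). Of all genes tested, 7.58% were higher and 6.5% lower there. Against buffer, TGF-β raised 7 (35%) and lowered 4 (20%) in LETS1 cells (5 and 2 without LETS1 buffer replicate 1). All genes tested gave 19.7% and 19.1%. In Co.vec cells 6 rose (30%) and 4 fell (20%), beside 21.1% and 18.6% of all genes tested. MAP2K6, which encodes a p38 kinase kinase, fell by 0.83 in LETS1 cells and by 0.81 in Co.vec cells. For the interaction edgeR called 0 of these 29 and 0 of these 20 genes, with 2 of each at an unadjusted p under 0.05 and 0 with DESeq2. The shares over all genes tested were 0.599% lower and 0.0803% higher.

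Among 14 tested ligand genes of the EGF, FGF and related families, 4 rose and 1 fell with LETS1 in buffer, and 5 and 1 with TGF-β. Of all genes tested, 8.57% were higher and 6.56% lower in buffer, and 7.58% and 6.5% with TGF-β. NRG1, a ligand of ERBB3, stood at 206.3 ± 3.21 CPM in LETS1 cells in buffer and 124.5 ± 2.90 CPM in Co.vec cells in buffer (SD, n = 3 each; log2 fold change 0.73, edgeR adjusted p = 6.3e-14). With TGF-β 7 of the 14 rose and 4 fell in LETS1 cells and in Co.vec cells alike, and PDGFB rose by 3.59 in each. Of all genes tested, 19.7% rose and 19.1% fell in LETS1 cells, and 21.1% and 18.6% in Co.vec cells. For the interaction edgeR called 0 of the 14 (2 at an unadjusted p under 0.05 and 0 with DESeq2), and 1 without replicate 3 of either TGF-β group or with no filter on low counts. The shares over all genes tested were 0.599% lower and 0.0803% higher.

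The 10 atypical DUSP genes, whose products are small and mostly lack the MAPK docking domain, had a share of LETS1 calls near that of all genes tested (8.57% higher and 6.56% lower in buffer, 7.58% higher and 6.5% lower with TGF-β). In buffer edgeR called 0 higher (0 at an unadjusted p under 0.05 and 0 with DESeq2) and 1 lower, DUSP3, at 126.2 ± 3.35 CPM in LETS1 cells and 138.7 ± 4.57 CPM in Co.vec cells (SD, n = 3 each; log2 fold change -0.14, edgeR adjusted p = 0.0371). That call was lost without replicate 1 or 2 of either buffer group, without LETS1 TGF-β replicate 2 and with a replicate block. With TGF-β 1 was higher, DUSP23 (0.23, edgeR adjusted p = 0.0224), which was lost without LETS1 TGF-β replicate 1 or 2, without Co.vec TGF-β replicate 3 and with DESeq2, while 2 were higher without Co.vec TGF-β replicate 1. The ligand raised 5 and lowered 1 in LETS1 cells, beside 19.7% higher and 19.1% lower over all genes tested. It raised 3 and lowered 2 in Co.vec cells, beside 21.1% higher and 18.6% lower. DUSP11 rose by 0.32 in LETS1 cells and 0.38 in Co.vec cells, and DUSP14 fell by 0.33 in LETS1 cells and by 0.26 in Co.vec cells. For the interaction edgeR called 0 of the 10, with 0 at an unadjusted p under 0.05 and 0 with DESeq2. The shares over all genes tested were 0.599% lower and 0.0803% higher.

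**Figure D4:**
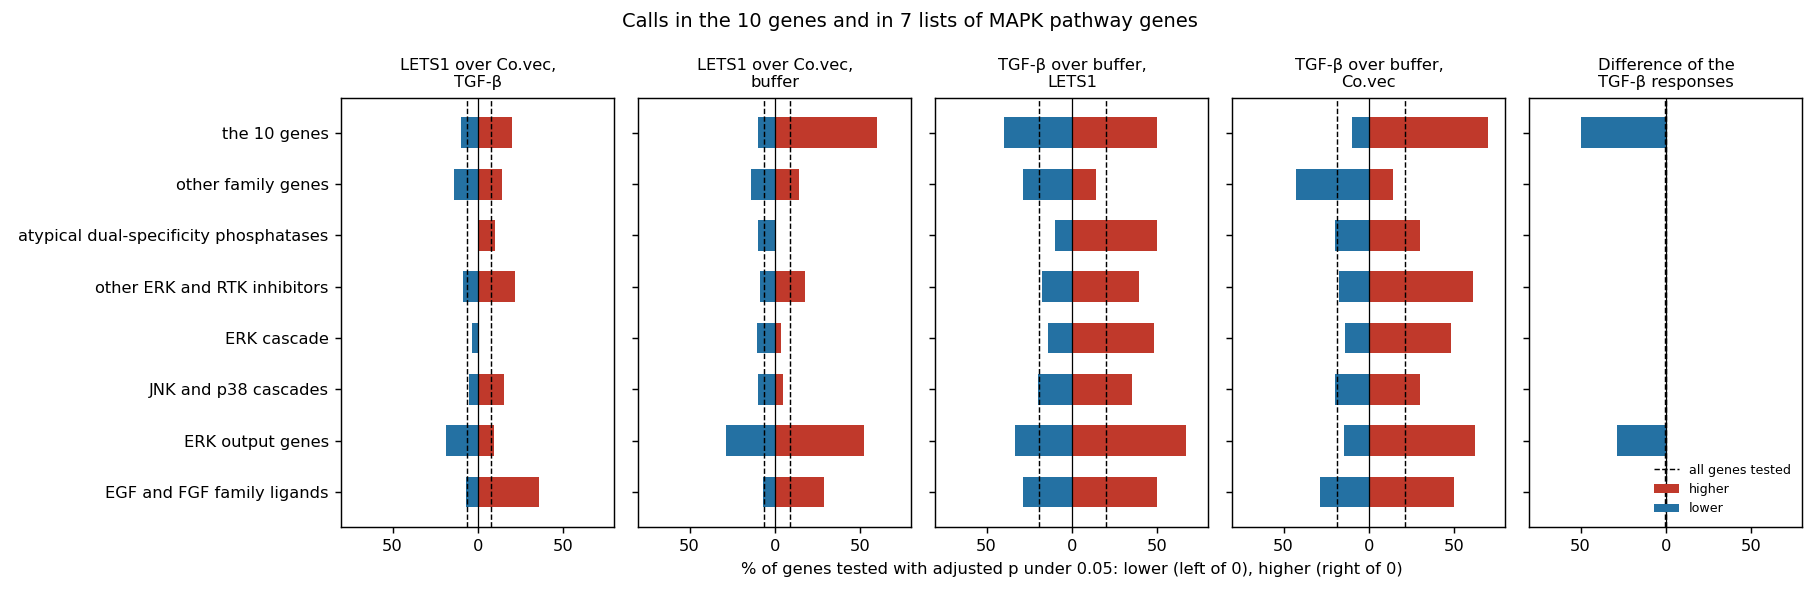
Share of tested genes (x axis, %) with an edgeR adjusted p under 0.05 that were higher (right of 0) or lower (left of 0) in 5 comparisons (panels), for the 10 genes and 7 lists of pathway genes (y axis); dashed lines give the share over all genes tested. In the difference of the TGF-β responses, 5 of the 10 genes and 6 of 21 ERK output genes are lower, beside 0.599% of all genes.

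The genes whose log2 CPM followed a member most closely over the 12 libraries were looked up for the DUSP genes with the highest counts and for SPRED2, the highest among the Sprouty and SPRED genes. DUSP4 was most like NR4A2 (Pearson r = 0.970), HOXA-AS2 (0.963) and FOS (0.963). DUSP1 was most like KLF10 (0.948), PPP1R15A (0.946) and ID3 (0.944), and DUSP5 most like PPP1R15A (0.929), KLF10 (0.925) and KLF6 (0.922). SPRED2 was most like HOXD9 (0.947), MAPK1IP1L (0.940) and GPRC5C (0.939). HOXD9 had a low level, with a mean log2 CPM of -0.75 over the 12 libraries. These libraries fall into 4 groups that share treatments, so the coefficients describe the group pattern and carry no test.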

How the data were processed

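RNA from 12 A549 libraries was counted per gene. The deposited values are raw counts of fragments, and the submitters' processing notes name cutadapt 2.10, STAR 2.7.5a, HTSeq 0.12.4 and the build GRCh38. Neither strand setting nor annotation release was stated there. Of all fragments, 80.0% to 81.1% lay in genes, 2.81% to 3.53% in no feature and 10.1% to 10.9% were ambiguous; the 5 rows of fragments given to no gene stayed out of library sizes and tests. Symbols came from a gene name table (60357 of 60676 rows matched) and coordinates and merged exon lengths from GENCODE 29.

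Genes were kept with filterByExpr, scaled by TMM and fitted with 1 mean per group over all 12 libraries (edgeR 4.0.16, R 4.3.3, robust quasi-likelihood), with Benjamini-Hochberg adjustment over 16192 genes in each of 5 contrasts and a threshold of 0.05. The common biological coefficient of variation was 0.0413. SE was obtained by dividing the absolute log2 fold change by the root of F, and intervals are 95%. The fit was tested on simulated counts. The 10 genes and the lists of pathway genes were chosen with earlier results of these data known. All 10 genes were named. For each list the naming rule took the largest called changes, up to 4 a contrast, and not all of them are printed. The 3 genes most like a member are given for some members. ETV1, ETV4, ETV5, CCND1 and the interaction genes from outside the lists were chosen after their values were seen. No 2 libraries held identical values, and replicate pairs differed by 2.16 to 5.24 times counting variance (chi-square per degree of freedom). Alternatives were RLE size factors, no filter, a replicate block, each library left out, the compared libraries alone and DESeq2 1.42.0. Promoter windows were RefSeq's (GRCh38.p14).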

Additional observations from a re-analysis of the deposited data

Results flagged for a closer look

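The TGF-β response of 5 of the 10 genes differed between LETS1 and Co.vec cells by the interaction test of edgeR (response in LETS1 cells minus response in Co.vec cells, log2 scale). The values were -1.29 for DUSP1, -0.90 for DUSP8, -0.58 for DUSP5, -0.57 for SPRY2 and -0.26 for DUSP4, and every one was negative. DUSP1, DUSP5 and SPRY2 fell with the ligand in LETS1 cells and rose in Co.vec cells, DUSP4 fell in both and DUSP8 rose in both. The opposite directions were stable for DUSP1 only. The DUSP5 rise in Co.vec cells was lost without any of 4 libraries and with DESeq2 (adjusted p = 0.062). The SPRY2 fall in LETS1 cells was likewise lost without any of 4 libraries and with DESeq2 (adjusted p = 0.106). LETS1 buffer replicate 3, in which all 5 were highest within their group, enters this term, and without it DUSP1 (-1.23), DUSP8 (-0.81) and DUSP5 (-0.54) passed while SPRY2 (-0.51) and DUSP4 (-0.21) did not.

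Over all genes tested, the same test called 97 lower and 13 higher. The lower ones included the ERK output genes EGR1 (-4.41), FOS (-1.77), FOSL1 (-0.75) and IER2 (-0.74). They also included genes outside that list, such as FOSB (-5.34), NR4A1 (-1.72), SCHIP1 (-1.67), GADD45B (-1.64) and ATF3 (-1.56). The genes outside that list were chosen after their values were seen. Groups of 3 are too small for the check of single outlying samples, and it was not applied.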

How the results depend on the processing

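The number of the 10 genes called stayed within 1.5 times its value under DESeq2, a replicate block, RLE scaling, the compared libraries alone and no low-count filter. With 1 library left out, 6 to 7 were called for LETS1 in buffer, 2 to 3 for LETS1 with TGF-β, 8 to 9 for TGF-β in LETS1 cells, 7 to 8 for TGF-β in Co.vec cells and 3 to 5 for the interaction; the count of 3 arose without LETS1 buffer replicate 3 and without LETS1 TGF-β replicate 2. Of 840 refitted values of single members, 796 kept their direction and side of the threshold, 34 lost the call and 10 changed sign, the last all with 1 library left out and none of them called before or after. With 1 library left out, the log2 fold changes that crossed 0 ran from -0.17 to 0.059 for DUSP6 and from -0.057 to 0.037 for SPRED2 (LETS1 in buffer), from -0.14 to 0.035 for DUSP8, -0.020 to 0.15 for DUSP10 and -0.14 to 0.010 for SPRY2 (LETS1 with TGF-β), and from -0.19 to 0.033 for DUSP6 (interaction). SPRY4 with TGF-β also lost its call with no filter (edgeR adjusted p = 0.0525), with the compared libraries alone (0.0646) and with the block (0.059). RLE size factors moved the median gene by at most 0.0071 on the log2 scale.

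Replicate numbers were not shown to pair libraries: residual correlations of same-numbered libraries ran from -0.092 to 0.053 over 18 pairs, and 4 of 12 libraries were closest to their own number. With the replicate block 7, 2, 9, 8 and 4 of the 10 genes were called, in the order LETS1 in buffer, LETS1 with TGF-β, TGF-β in LETS1 cells, TGF-β in Co.vec cells and interaction, and the calls it ended were SPRY4 with TGF-β and the DUSP4 interaction. DUSP8 and DUSP10 had the lowest counts and the widest intervals of the 10 genes.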
